A study of Homo sapiens with 12 samples.

Results

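The replication-dependent histone genes were read as the features of the count table whose gene name starts with HIST1H, HIST2H, HIST3H or HIST4H. This rule uses the name alone, and it found 71 genes among 26535 features. They comprise 6 genes of the linker histone H1, 17 of H2A, 18 of H2B, 15 of H3 and 15 of H4. In the GENCODE release 29 annotation of GRCh38, 55 lie in the HIST1 cluster on chromosome 6, 12 in HIST2 and 3 in HIST3 on chromosome 1, and 1 (HIST4H4) on chromosome 12. The libraries come from H1299 and A549, established human non-small-cell lung cancer lines labelled wild type. H1299 was kept in RPMI-1640 and A549 in DMEM/F12, so line and medium cannot be told apart. Each line received a lentivirus carrying VGF, which encodes a secreted neuroendocrine precursor protein, or the empty vector. The 4 groups are H1299 with VGF, H1299 with empty vector, A549 with VGF and A549 with empty vector, with 3 libraries each, which the submitters call biologically independent. Whether each is a pool of cells or a clone is not given in the sources used here.

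Replication-dependent histones package newly made DNA, and their messenger RNAs accumulate in S phase and are degraded when DNA synthesis stops. These are the metazoan messenger RNAs that normally end without a poly(A) tail: the pre-mRNA is cut just after a conserved stem-loop, which the stem-loop binding protein SLBP holds through processing, export, translation and decay. A minority of transcripts are instead cleaved further downstream and polyadenylated. Per the labels' protocols, messenger RNA was caught on capture beads from total RNA, a step that takes tailed transcripts. The values below are therefore levels of captured histone RNA, and their relation to total histone RNA was not tested.

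Library totals ran from 31378171 to 41919484 counts. VGF had 35974, 37510 and 47251 counts in H1299 VGF libraries, against 3465, 3989 and 3662 with empty vector. In A549 it had 39803, 46973 and 44733 counts with VGF, against 94, 85 and 67 with empty vector. The line labels were checked with CDKN2A, which is known to be deleted in A549: it had 5158 to 7075 counts in H1299 libraries and 0 to 51 in A549 libraries. The 51 counts were in A549 VGF library 2. A549 empty-vector library 1 had 11, and the other A549 libraries had 0. A549 VGF library 2 stands apart. There the 12 endothelial markers read summed to 18032 counts, against 2529 and 3239 in A549 VGF libraries 1 and 3 and 2532 to 2961 in the 3 empty-vector libraries. None of these markers was at 0 in A549 VGF libraries 1 and 2, 2 were in library 3, and 4 to 7 were in the empty-vector libraries, TEK, ERG and EMCN in every one. Most counts of the other A549 libraries were of ESAM (928 to 1424) and EGFL7 (1383 to 1861). The other markers were much lower there than in VGF library 2: PECAM1 had 19 to 61 counts against 3305, and CDH5 0 to 21 against 3387. Counts of calls that use A549 with VGF, and the line values with VGF of the genes that differed most, are also given without library 2.

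The stem-loop is shown first, because it is the mark by which such transcripts are known. 31 of the 71 genes carry 1 of 7 searched 16-base letter sets in an annotated transcript, and most of the others are annotated as coding sequence only, which ends before it. The 26-base stretches below hold the stem-loop in capitals and 5 bases on either side, on the coding strand of GRCh38. They are from the H2A gene HIST1H2AE (chr6:26217412-26217437), the H2B gene HIST1H2BC (chr6:26123467-26123492), the H4 genes HIST1H4H (chr6:26285126-26285151) and HIST1H4I (chr6:27139649-27139674), and the H2A gene HIST1H2AG (chr6:27133510-27133535).
HIST1H2AE: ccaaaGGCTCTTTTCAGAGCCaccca
HIST1H2BC: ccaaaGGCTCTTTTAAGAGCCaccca
HIST1H4H: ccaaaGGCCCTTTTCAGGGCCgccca
HIST1H4I: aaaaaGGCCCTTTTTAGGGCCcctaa
HIST1H2AG: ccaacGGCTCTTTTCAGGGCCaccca
The form of HIST1H2AE was shared by 6 H2A, 8 H2B and 3 H3 genes, and that of HIST1H2BC by 3 H2B and 2 H3 genes. The 8 H4 genes with a stem-loop carried a different base pair in the stem. 5 of them had the loop of HIST1H4H and 3 that of HIST1H4I. Only 1 of the 7 letter sets searched has stem arms that are not exact reverse complements, and HIST1H2AG alone carried it. Other mismatched stems were not searched for.

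Captured histone RNA was a small part of the libraries. The 71 genes took 0.0203 to 0.0236% of all counts in H1299 VGF libraries, 0.0224 to 0.0263% in H1299 empty-vector libraries, 0.0177 to 0.0207% in A549 VGF libraries and 0.0187 to 0.0201% in A549 empty-vector libraries. 36 genes had counts in all 12 libraries, and 7 had none in any: HIST1H1A, HIST1H2AA, HIST1H2AK, HIST1H2BA, HIST1H4F, HIST1H4G and HIST1H4L. By the deposited FPKM, a level per length of the gene model, 28 genes reached a mean of 1 over the 12 libraries and 6 reached 10. The lowest of the 28 was HIST1H2AL at 1.00 FPKM, and the next below it was HIST1H2AJ at 0.860 FPKM.

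HIST1H2BK, an H2B gene, was the highest. It had 157, 125 and 156 FPKM in H1299 VGF libraries and 144, 152 and 149 FPKM in H1299 empty-vector libraries. It had 98.4, 85.4 and 94.1 FPKM in A549 VGF libraries and 98.7, 91.8 and 97.9 FPKM in A549 empty-vector libraries. The libraries of the 2 lines did not overlap, whereas within a line those of VGF and empty vector did. It took 22.7% of the summed counts, each scaled to its library's size (CPM), of all histone genes, and the 5 highest genes by CPM took 54.9%.

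Among H1 genes only HIST1H1C, which encodes the linker histone H1.2, passed 1 FPKM. It had 32.4, 26.8 and 28.3 FPKM in H1299 VGF libraries, 26.4, 24.7 and 30.6 FPKM in H1299 empty-vector libraries, 28.0, 29.4 and 30.6 FPKM in A549 VGF libraries and 27.9, 26.6 and 25.9 FPKM in A549 empty-vector libraries. The other H1 genes had means of at most 0.398 FPKM (HIST1H1E). The highest H2A gene was HIST1H2AC at a mean of 18.9 FPKM, followed by the near-identical HIST2H2AA4 and HIST2H2AA3 at 11.6 and 10.9 FPKM. After HIST1H2BK, the H2B genes HIST1H2BD and HIST1H2BC averaged 11.4 and 8.67 FPKM. The highest H4 genes were HIST1H4I at 6.36 FPKM and the copies HIST2H4A and HIST2H4B at 6.22 and 5.66 FPKM. H3 genes were low as a class, and the highest, HIST1H3H, averaged 2.67 FPKM. Neighbours in this order were often within each other's spread: HIST2H2AA4, HIST1H2BD and HIST2H2AA3 overlapped in every group.

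**Figure D1:**
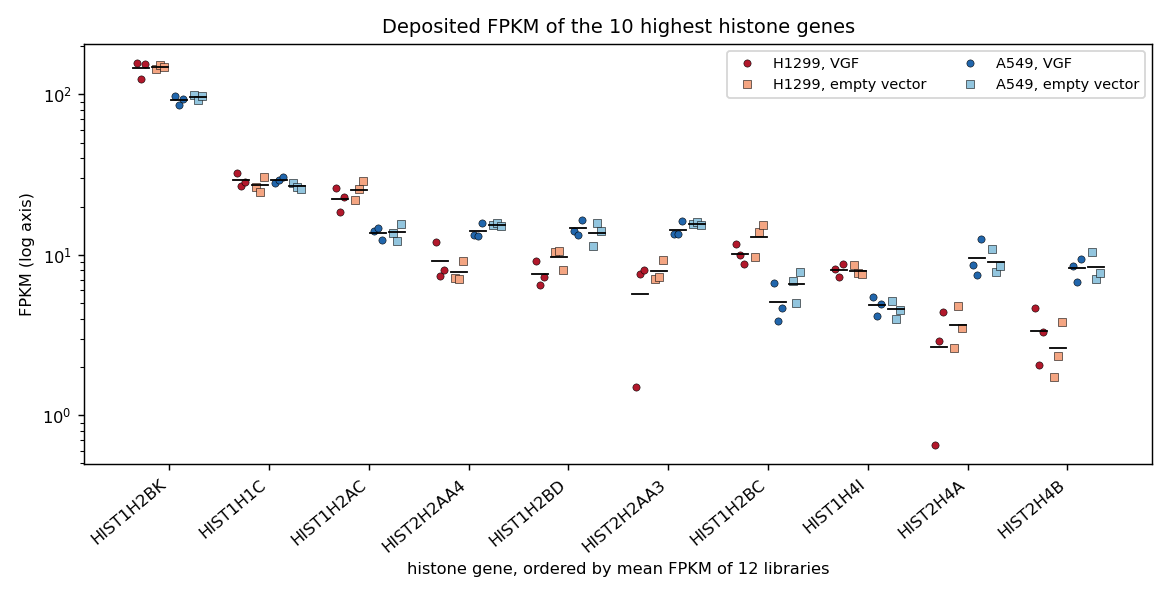
Deposited FPKM (log axis) of the 10 histone genes with the highest mean over 12 libraries; each point is a library, bars are means of 3, and the 4 groups stand side by side. HIST1H2BK lies above all others at 85.4 to 157 FPKM, and single low points at HIST2H2AA3 and HIST2H4A belong to H1299 VGF library 1.

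The gene models differ in what they hold. 26 genes have a model that is spliced or runs at least 100 bases past the stem-loop, and 25 of these passed the filter on low counts. 12 genes have a shorter model with untranslated sequence, of which 8 passed, and 33 have the coding sequence alone, of which 12 passed. The median of the mean FPKM was 1.45 in the first class, 0.527 in the second and 0.225 in the third. HIST1H2BK and HIST1H1C, the 2 highest by FPKM, have coding sequence only, of 381 and 642 bases, by which FPKM divides. How far their captured transcripts reach beyond it was not tested. Genes that pass a filter do so through the groups where they are high, so the 45 tested genes do not stand for all 71.

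VGF changed no histone gene detectably in H1299. The quasi-likelihood test of edgeR called 0 of 45 tested genes at an adjusted p under 0.05, as did DESeq2 and limma voom, against 0.011% of all features by edgeR. 2 genes had an unadjusted p under 0.05, HIST1H3B and HIST1H3H, against 7.8% of all features. HIST1H3E had 0 counts in all 6 H1299 libraries and HIST1H1D at most 2 in a group, under a floor of 3 counts, so neither has a fold there. Of the other 43 genes, log2 fold changes were below 0 for 28 and above 0 for 15 (45.4% of all features). The median was -0.25, against -0.01 over all features. For no gene did all 3 VGF libraries lie above the 3 empty-vector libraries (5.65% of all features), and for 4 they lay below (7.05%): HIST1H3B, HIST1H3H, HIST1H4K and HIST1H2AG.

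By role, the linker gene HIST1H1C had 20.3, 17.0 and 18.3 CPM in H1299 VGF libraries, against 16.7, 15.8 and 19.3 CPM with empty vector. The groups overlapped (log2 fold change 0.10, SE 0.096, 95% interval -0.10 to 0.31). HIST1H2BK had 58.4, 47.1 and 59.8 CPM with VGF, against 54.0, 57.6 and 55.6 CPM with empty vector. Its log2 fold change of -0.02 had an interval of -0.20 to 0.16, the narrowest in H1299. Of 11 H2A and 14 H2B genes, 5 and 4 had a fold change above 0. Of 6 H3 genes with a fold, only HIST1H3G did.

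The H3 genes HIST1H3B and HIST1H3H were the lowest by p. HIST1H3B had 0.394, 0.476 and 0.165 CPM in H1299 VGF libraries, against 0.624, 0.612 and 0.972 CPM with empty vector. Its log2 fold change was -1.09 (SE 0.465, adjusted p = 0.621). HIST1H3H had 3.77, 3.56 and 4.22 CPM with VGF, against 5.35, 5.35 and 5.06 CPM with empty vector. The 2 groups of HIST1H3H lie apart, and its log2 fold change was -0.45 (SE 0.201, adjusted p = 0.633). HIST2H3C was next among the falls in size of p, at -1.17 (SE 0.559, adjusted p = 0.650), but it is a member of a copy pair whose counts were split unevenly in 1 library, described below. On the positive side the smallest p values were those of HIST3H2A (0.32), HIST2H2AA4 (0.24) and HIST1H2BE (0.43), each with an adjusted p of at least 0.854. HIST2H2AA4 is also a member of such a pair, and without H1299 VGF library 1 it stood at 0.01 and HIST2H3C at -0.77. HIST1H2BE is overlapped on the opposite strand by AL353759.1 over 28.2% of its exonic bases.

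VGF changed no histone gene detectably in A549 either. Here too edgeR called 0 of 45 genes, against 0.79% of all features, and DESeq2 and limma voom called 0. None had an unadjusted p under 0.05, against 13.9% of all features. HIST1H2AE has no fold here, with 0, 3 and 0 counts with VGF and 0 in each empty-vector library. Of the other 44 genes, log2 fold changes were above 0 for 27 (49.3% of all features) and below for 17. The median was 0.08, against 0.00 over all features. The 3 VGF libraries lay above the empty-vector libraries for 2 genes (9.27% of all features), HIST1H1C and HIST1H2BO, and below for 2 (9.08%), HIST1H3E and HIST1H4H. Without A549 VGF library 2, 0 of 50 tested genes were called, against 0.514% of all features. An unadjusted p under 0.05 was found for 2 of the 50, against 1939 of all 18694 features. The median was 0.20, against 0.00 over all features.

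HIST1H1C had 20.4, 21.6 and 22.6 CPM in A549 VGF libraries, against 20.3, 19.5 and 18.8 CPM with empty vector, which is 0.14 higher on the log2 scale (SE 0.096, adjusted p = 0.577). All 3 VGF values lay above the others, the lowest by a small margin. The 4 tested H1 genes had fold changes above 0, as had 6 of 10 H2A, 6 of 14 H2B, 4 of 7 H3 and 7 of 9 H4 genes. H1 genes other than HIST1H1C had few counts. Leaving out 1 library at a time moved the log2 fold change of HIST1H1B between -3.34 and 5.42, and that of HIST1H1E between -0.03 and 0.96. HIST1H1C and HIST1H1D stayed above 0. HIST1H2BK had 42.5, 37.1 and 41.3 CPM with VGF, against 42.8, 39.9 and 42.2 CPM with empty vector, with an interval of -0.23 to 0.14 around a log2 fold change of -0.05.

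The smallest p in A549 belonged to HIST1H3E, an H3 gene. It had 7.32, 5.90 and 5.55 CPM with VGF, against 9.46, 7.73 and 8.72 CPM with empty vector. Every VGF library was lower, and the log2 fold change was -0.47 (SE 0.216, adjusted p = 0.389). The H4 gene HIST1H4H followed, with 3.59, 3.42 and 2.56 CPM against 4.63, 3.91 and 4.45 CPM with empty vector (log2 fold change -0.44, SE 0.255, adjusted p = 0.485). HIST1H2BC stood at -0.35, and among positive values HIST1H2AG at 0.35 and HIST1H1C had the smallest p.

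The difference between the VGF effects, H1299 minus A549, was tested in the same fit. edgeR called 0 of 45 genes, against 0.159% of all features, DESeq2 and limma voom called 0, and none had an unadjusted p under 0.05 against 11.2% of all features. For the 42 genes with a fold in both lines, the difference was negative for 30 and positive for 12 (46.0% of all features). The median was -0.35, against -0.02 over all features. The smallest adjusted p was 0.454, for HIST1H3H. A p that misses the threshold does not show equal effects, and for HIST1H2BK the interval of the difference was -0.23 to 0.29.

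**Figure D2:**
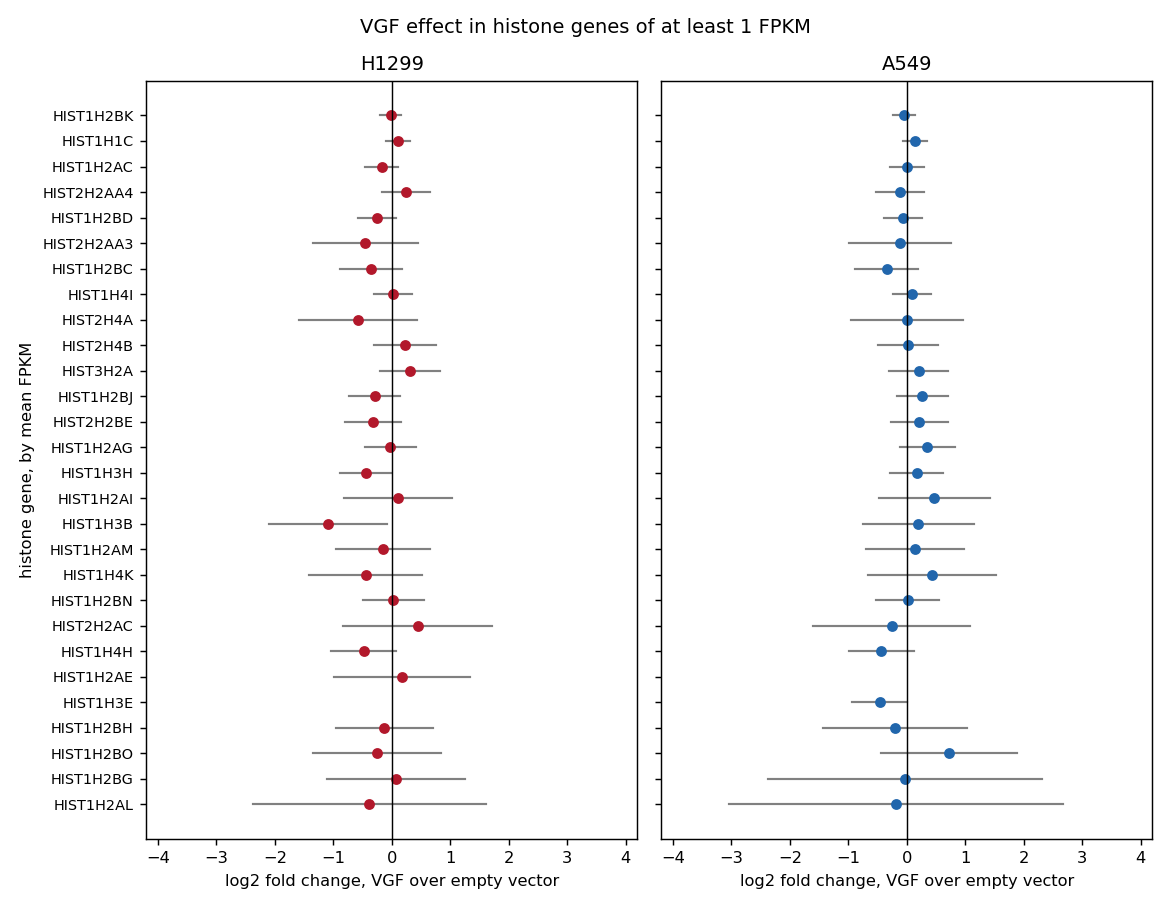
Log2 fold change of VGF over empty vector with its 95% interval (edgeR, n = 3 libraries a group) for the 28 histone genes with a mean of at least 1 FPKM, highest at the top, H1299 on the left and A549 on the right. Intervals are narrow for HIST1H2BK and widen towards the low genes; HIST1H3E in H1299 and HIST1H2AE in A549 have no point because both groups were at or under 3 counts.

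Low genes varied between libraries of a group. The 43 genes under 1 FPKM summed to 11.4, 12.8 and 12.6 CPM in H1299 VGF libraries, against 10.2, 13.0 and 18.1 CPM with empty vector. In A549 they summed to 10.5, 11.4 and 16.6 CPM with VGF, against 14.1, 12.5 and 9.98 CPM with empty vector. The highest values were H1299 empty-vector library 3 and A549 VGF library 3. Without H1299 empty-vector library 3 the median log2 fold change in H1299 was -0.02. Without A549 VGF library 3 the median in A549 was -0.05. The sum over all 71 genes was 219, 189 and 221 CPM in H1299 VGF libraries, against 207, 222 and 242 CPM with empty vector. In A549 it was 212, 190 and 225 CPM with VGF, against 215, 201 and 208 CPM with empty vector. The groups overlapped within each line.

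Captured RNA of single histone genes differed between the lines in both directions. In the main fit the share called was smaller than among all features, but 17 of the 45 tested genes averaged under 1 FPKM. With a filter of 1 CPM in 3 libraries, 24 of 32 genes were called with empty vector and 27 of 32 with VGF. The shares over all features under that filter are not given here. In the main fit with empty vector, H1299 against A549, 29 of 45 tested genes were called by edgeR, 15 higher and 14 lower in H1299. That is 64.4%, a share below the 77.2% called among all features, of which 38.5% were higher and 38.6% lower. Without H1299 empty-vector library 1 the lower calls numbered 9 of 50 tested. In 18 genes all H1299 libraries lay above all A549 libraries (40.7% of all features), and in 14 below (40.3%). In the separate VGF libraries 28 of 45 were called (77.3% of all features), 14 in each direction (38.2% and 39.1% of all features). Without A549 VGF library 2, 25 of 50 tested genes were called with VGF, against 74.5% of all features. 25 of 45 genes (55.6%) were called with both vectors, against 71.3% of all features, and 42 (93.3%) had the same sign in both, against 93.4% of all features. By cluster, of 32 tested HIST1 genes, 15 were called higher and 5 lower with empty vector, of 10 HIST2 genes 0 higher and 7 lower, and of 2 HIST3 genes 0 higher and 2 lower. HIST2 calls include copies whose counts are shared, and with copies summed 11 genes in all were called lower.

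**Figure D3:**
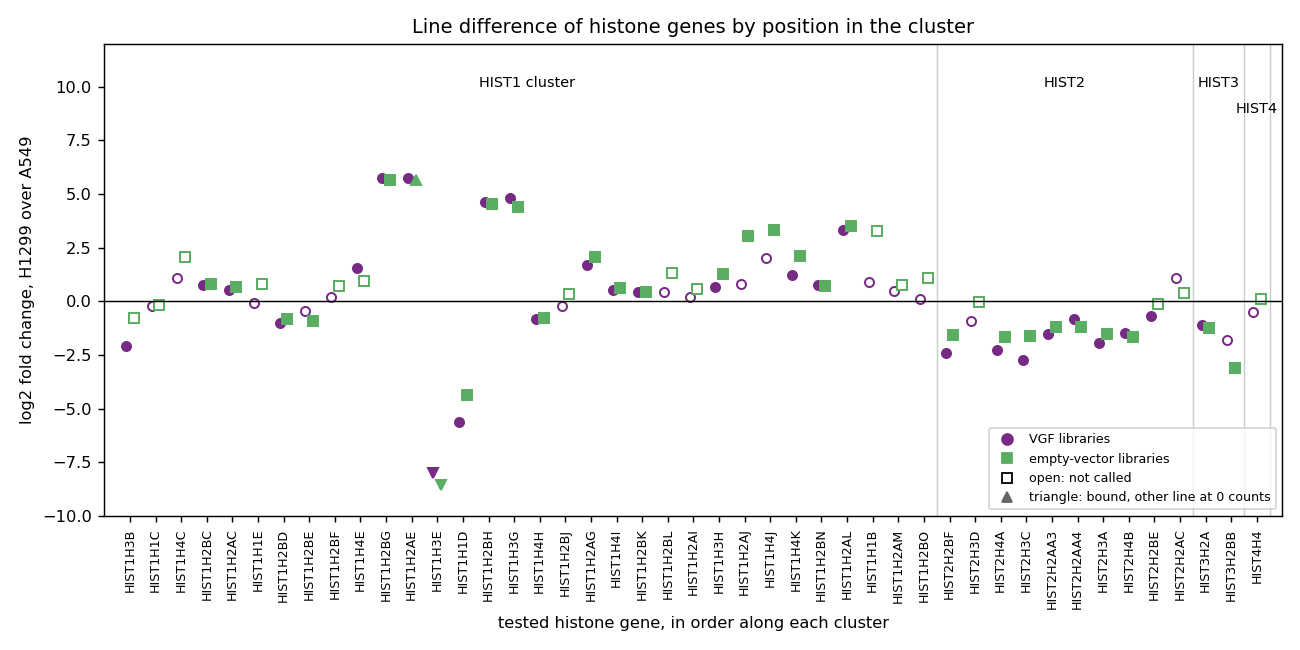
Log2 fold change of H1299 over A549 for the 45 tested histone genes in their order along the HIST1, HIST2, HIST3 and HIST4 clusters, in VGF libraries (circles) and empty-vector libraries (squares), filled where called. Triangles are bounds where a line had 0 counts, and the points of HIST1H1D and of HIST1H2AE in VGF libraries are fitted values that rest on 1 to 3 counts in the low line. HIST1H2BG, HIST1H2AE, HIST1H2BH and HIST1H3G stand high, HIST1H3E and HIST1H1D low, and most HIST2 genes lie below 0.

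The largest differences lay close together in the HIST1 cluster, between HIST1H2BG and HIST1H3G. HIST1H2BG, an H2B gene (chr6:26215159-26216692, minus strand), had 2.86, 2.98 and 3.96 CPM in H1299 VGF libraries, against 0, 0.0511 and 0.115 CPM in A549 VGF libraries. With empty vector it had 2.90, 3.36 and 3.09 CPM in H1299, against 0.175, 0 and 0 CPM in A549. The lines did not overlap, and the log2 fold changes were 5.75 (SE 0.777) with VGF and 5.64 (SE 0.776) with empty vector. HIST1H2AE, the H2A gene transcribed away from it (chr6:26216975-26217483, plus strand), had 206 counts over the H1299 VGF libraries against 3 over the A549 VGF libraries, a 57.6-fold ratio with an exact binomial counting interval of 19.4 to 282. All 3 of these A549 counts were in library 2, and without it HIST1H2AE was at 0 in A549 with VGF and at least 35.9-fold higher in H1299. Without that library HIST1H2BG stood at 5.67 (SE 0.869). With empty vector HIST1H2AE had 195 counts in H1299 against 0 in A549, at least 50.1-fold higher than a floor of 3 counts over the group.

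HIST1H2BH, an H2B gene (chr6:26251651-26253710, plus strand), had 3.69, 4.41 and 5.47 CPM in H1299 VGF libraries, against 0.342, 0.0255 and 0.201 CPM in A549 VGF libraries. With empty vector it had 5.22, 4.83 and 4.84 CPM in H1299, against 0.146, 0.239 and 0.241 CPM in A549. The log2 fold changes were 4.62 with VGF, or 4.08 without A549 VGF library 2, and 4.55 with empty vector. HIST1H3G, an H3 gene (chr6:26269405-26271815, minus strand), had 2.94, 2.81 and 3.77 CPM in H1299 empty-vector libraries, against 0.0291, 0.358 and 0.0601 CPM in A549, a log2 fold change of 4.39 (SE 0.863). With VGF it had 399 counts in H1299 against 12 in A549, all 12 in library 2, and without that library it was at least 69.4-fold higher in H1299. All 4 genes were called with both vectors, and with VGF also without A549 VGF library 2.

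2 genes of the same stretch ran the other way. HIST1H3E, an H3 gene (chr6:26224199-26227473, plus strand), had 0 counts in all 6 H1299 libraries, against 638 over the A549 VGF libraries and 874 over the A549 empty-vector libraries. It was therefore at least 256-fold lower in H1299 with VGF and at least 375-fold lower with empty vector, against a floor of 3 counts over the group. Without A549 VGF library 2 that bound was 264-fold with VGF. The linker gene HIST1H1D (chr6:26234268-26234933, minus strand) had 1 count in H1299 against 57 in A549 with VGF, 67.9-fold lower in H1299 with a counting interval of 11.7 to 2729, and 46 of the 57 counts were in A549 VGF libraries 1 and 3. With empty vector it had 2 counts in H1299 against 39 in A549, 25.1-fold lower with an interval of 6.50 to 214. Between HIST1H1D and HIST1H2BH lie HIST1H4F and HIST1H4G with 0 counts in every library, and HIST1H3F with 14 counts in H1299 against 8 in A549 with VGF and 69 against 0 with empty vector, which did not pass the filter.

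**Figure D4:**
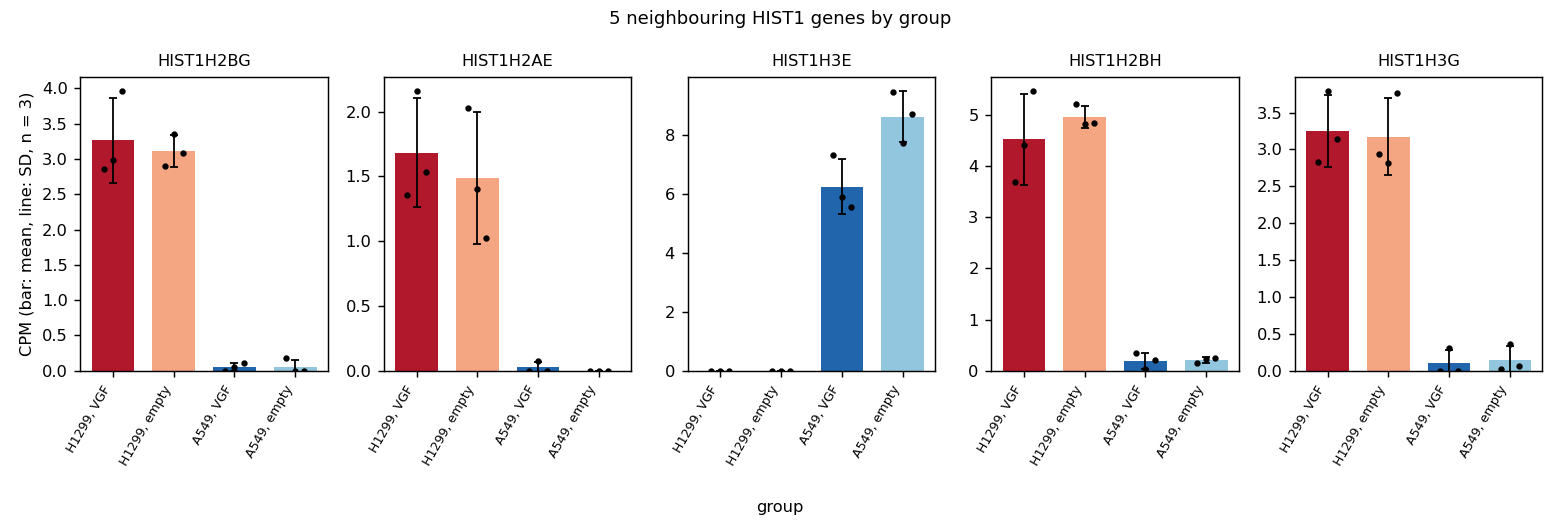
CPM of 5 neighbouring HIST1 genes in the 4 groups; bars are means, lines SD and points the 3 libraries. HIST1H2BG, HIST1H2AE, HIST1H2BH and HIST1H3G are high in both H1299 groups, at 1.02 to 5.47 CPM, and HIST1H3E is at 0 there and at 5.55 to 9.46 CPM in A549.

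Histone promoters are known for a TATA box, CCAAT boxes and, in H2B and divergent H2A-H2B promoters, an octamer read by OCT1. RefSeq windows (GRCh38.p14) of 250 bases before the start were matched for 61 of the 71 genes. On either strand, TATAAA was found in 67.2% of these against 10.7% of all 35116 windows of that length, CCAAT in 83.6% against 32.0%, and the octamer ATTTGCAT in 34.4% against 1.63%. The windows of HIST1H2AE (chr6:26216671-26216920, plus strand), which covers most of the stretch shared with HIST1H2BG, and of HIST1H3E (chr6:26223928-26224177, plus strand) are shown because these neighbours differed in opposite directions. Capitals mark these motifs on either strand.
HIST1H2AE: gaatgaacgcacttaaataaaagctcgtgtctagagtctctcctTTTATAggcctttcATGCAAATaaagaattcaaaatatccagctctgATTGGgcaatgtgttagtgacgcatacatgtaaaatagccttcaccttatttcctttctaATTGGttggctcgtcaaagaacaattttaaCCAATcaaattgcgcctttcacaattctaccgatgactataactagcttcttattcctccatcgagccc
HIST1H3E: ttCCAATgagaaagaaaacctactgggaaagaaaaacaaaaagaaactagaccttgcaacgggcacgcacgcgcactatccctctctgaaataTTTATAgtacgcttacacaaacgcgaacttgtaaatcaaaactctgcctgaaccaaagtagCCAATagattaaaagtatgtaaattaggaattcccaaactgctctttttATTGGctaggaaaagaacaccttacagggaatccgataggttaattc
The HIST1H2AE window holds all 3 motifs, and the HIST1H3E window holds TATAAA and CCAAT but not the octamer letters. In both windows TATAAA is found only on the opposite strand, printed as TTTATA, and not on the strand of the gene shown. A match describes the letters and shows no binding.

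Of the other named rises in H1299, HIST1H2AL had 79 counts over H1299 VGF libraries against 6 in A549, and 107 against 7 with empty vector (log2 fold change 3.53, SE 1.12, adjusted p = 0.0118). It overlaps HIST1H2BN over 1.02% of its bases on the same strand. The H4 gene HIST1H4J had 39 counts against 8 with VGF, where it was not called, and 56 against 4 with empty vector (3.33, SE 1.22, adjusted p = 0.0248). Its call was lost without A549 empty-vector library 1 or 3 or H1299 empty-vector library 1 or 2, at an adjusted p of up to 0.0864. HIST1H2AL lost its call with VGF without A549 VGF library 2 or 3 or H1299 VGF library 3, at up to 0.0622. HIST1H2AG was measured more deeply. It had 10.9, 10.5 and 10.9 CPM in H1299 VGF libraries, against 3.49, 2.71 and 3.86 CPM in A549 VGF libraries. With empty vector it had 10.99, 10.98 and 10.94 CPM in H1299, against 3.64, 2.15 and 2.07 CPM in A549 (log2 fold change 2.06, SE 0.215, adjusted p = 1.38e-06). HIST1H3H rose by 1.27 (SE 0.207) with empty vector and by 0.65 (SE 0.205) with VGF. Among the highest genes, HIST1H2AC (0.69), HIST1H2BC (0.79), HIST1H4I (0.60) and HIST1H2BK (0.42) were called higher in H1299 with empty vector, in log2 units, and HIST1H1C was not called (-0.18, SE 0.096, adjusted p = 0.105).

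Of the 14 genes called lower in H1299 with empty vector, 7 were in HIST2. They were HIST2H2BF and both copies of the pairs HIST2H4A and HIST2H4B, HIST2H2AA3 and HIST2H2AA4, and HIST2H3A and HIST2H3C. The copies of a pair are not separate measurements, as described below. HIST2H4B, an H4 gene (chr1:149854045-149861210, minus strand), had 2.70, 3.81 and 4.03 CPM in H1299 empty-vector libraries, against 12.3, 10.2 and 11.3 CPM in A549. All A549 values lay above, and the log2 fold change was -1.68 (SE 0.246, adjusted p = 3.55e-05). Its copy HIST2H4A (chr1:149832659-149839767, plus strand) stood at -1.67. HIST2H2AA4 and HIST2H2AA3, 2 copies of an H2A gene, stood at -1.18 and -1.19. HIST3H2A had 2.54, 3.52 and 2.16 CPM in H1299 empty-vector libraries, against 6.26, 7.94 and 5.26 CPM in A549 (-1.24, SE 0.236). In HIST1, HIST1H2BD had 7.22, 6.30 and 5.91 CPM in H1299, against 10.1, 12.4 and 12.4 CPM in A549 with empty vector (-0.84, SE 0.150). HIST1H4H fell by 0.79 (SE 0.256), with an adjusted p of 0.0583 without H1299 empty-vector library 1. HIST2H2AA3 lost its call without H1299 empty-vector library 1 or 2, at an adjusted p of up to 0.0577.

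The copies need a caution. The pairs HIST2H4A and HIST2H4B, HIST2H2AA3 and HIST2H2AA4, and HIST2H3A and HIST2H3C are near-identical copies on the arms of a duplication on chromosome 1, and no source used here says how the authors shared reads between copies. In 11 libraries the first copy of each pair held 45.0 to 51.7% of the counts. In H1299 VGF library 1, HIST2H4A had 20 counts against 232 for HIST2H4B, HIST2H2AA3 had 33 against 270 for HIST2H2AA4, and HIST2H3C had 3 against 24 for HIST2H3A. The pair sums there, 252, 303 and 27 counts, lie beside 259 and 282, 329 and 383, and 30 and 15 counts in the other 2 libraries of the group. For the first 2 pairs the sum was a little below those of the other libraries, and for the third it lay between them. HIST2H4A and HIST2H3C also overlap on opposite strands, over 9.22% of the exonic bases of HIST2H4A, and whether counting used strand is not given. HIST1H4J and HIST1H4K share an identical coding sequence as well, so their separate values are uncertain. With copies summed, the calls between lines were 15 higher and 11 lower with empty vector and 14 higher and 11 lower with VGF, over 42 features, and none for VGF.

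**Figure D5:**
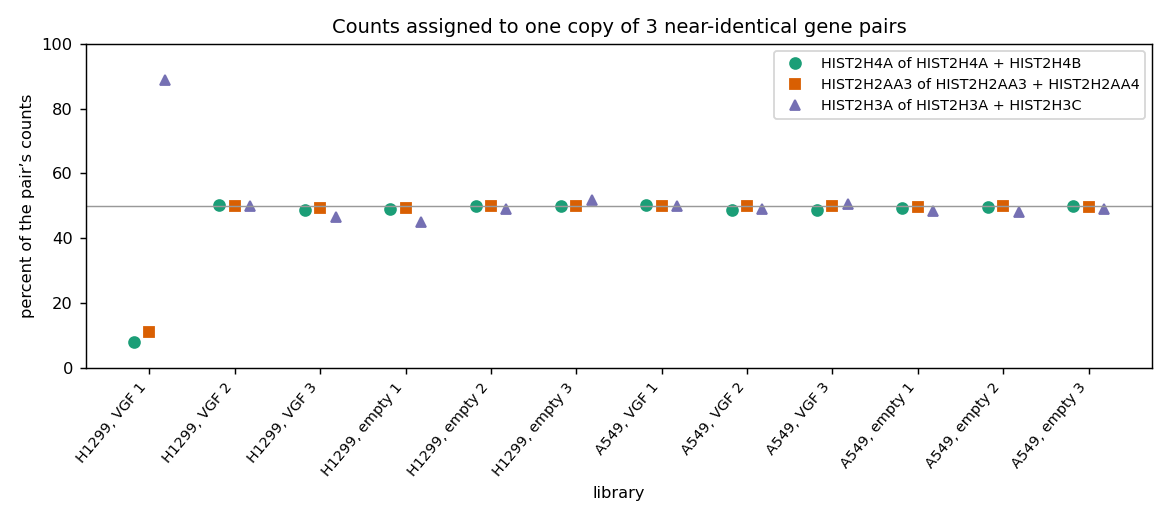
Percent of the counts of 3 near-identical gene pairs assigned to the first copy, in each of the 12 libraries. H1299 VGF library 1 stands at 7.94% for HIST2H4A, 10.9% for HIST2H2AA3 and 88.9% for HIST2H3A, and the other 11 libraries lie near the line at 50.

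H2A and H2B genes often stand head to head, which was read from the annotation as divergent starts at most 400 bases apart. 11 such pairs were found, and both genes were tested in 7. With empty vector, 3 of these had both genes called in the same direction between H1299 and A549: HIST1H2BG with HIST1H2AE and HIST1H2BC with HIST1H2AC higher in H1299, and HIST3H2A with HIST3H2BB lower. In the pair HIST1H2BJ and HIST1H2AG only HIST1H2AG was called, and in 3 pairs neither. 6 of the 7 pairs had the same sign with empty vector, where 50.2% of all features were above 0. Of all features, 38.5% were called higher and 38.6% lower in this comparison. With VGF, both genes of the HIST1H2BG and HIST1H2BC pairs were again called higher. HIST3H2A was again called lower, but HIST3H2BB was not called (log2 fold change -1.80). Signs were opposite with VGF in the pair of HIST2H2BE, called lower (-0.68), and HIST2H2AC, not called (1.08). They were also opposite for HIST1H2BJ, not called (-0.22), and HIST1H2AG, called higher (1.68). Levels within a pair could be far apart: HIST1H2BK averaged 120.7 FPKM and its partner HIST1H2AH 0.375 FPKM.

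Genes that act on these messages were read beside them. With VGF in A549, of 23 tested genes for histone pre-mRNA processing 1 was called, the histone gene coactivator NPAT, which had 22.8 ± 1.08 CPM with VGF against 17.2 ± 1.44 CPM with empty vector (SD, n = 3, edgeR adjusted p = 0.043). Of 22 histone chaperones 1 was called, ANP32E, which removes the variant H2A.Z (log2 fold change 0.25, adjusted p = 0.0377), and of 45 S phase genes 1, the primase subunit PRIM1 (0.30, adjusted p = 0.0488). Replacement histones are not limited to S phase, and most come from ordinary polyadenylated messages. Of 15 tested, 2 were called higher, H2AFV (0.27, adjusted p = 0.0156) and H3F3B (0.19, adjusted p = 0.0438). None of 10 tested genes for histone mRNA turnover was called. Over all features, 0.79% were called for VGF in A549. Without A549 VGF library 2, H2AFV alone was called among these lists, against 0.514% of all features. The S phase list had 42 of 45 fold changes above 0 with a median of 0.16, against 49.3% above 0 and a median of 0.00 over all features, and without that library 41 with a median of 0.15. In H1299 38 of 45 were above 0, against 45.4% of all features. None of these genes was called for VGF in H1299, against 0.011% of all features. The medians there were 0.06 for processing, 0.01 for chaperones, 0.05 for S phase genes, -0.04 for replacement histones and -0.03 for turnover.

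Between the lines with empty vector, 16 of the 23 processing genes were called higher in H1299 and 5 lower, against 77.2% of all features called. SLBP, which binds the stem-loop, had 87.8 ± 3.92 CPM in H1299 and 54.4 ± 0.924 CPM in A549 (log2 fold change 0.69, adjusted p = 4.41e-07). NPAT had 43.0 ± 2.71 CPM in H1299 and 17.2 ± 1.44 CPM in A549 (1.32, adjusted p = 5.39e-09). Chaperones were called higher for 13 and lower for 6 of 22, S phase genes for 19 and 17 of 45, turnover genes for 7 and 2 of 10, and replacement histones for 9 and 3 of 15. H2AFZ, which encodes H2A.Z, had 427 ± 18.4 CPM in H1299 and 183 ± 4.81 CPM in A549. The summed level of all 71 histone genes was 224 ± 17.6 CPM in H1299 and 208 ± 7.09 CPM in A549 (SD, n = 3). These libraries overlapped, but the overlap depended on the scaling. On library totals alone, the sum with empty vector was 224 to 263 CPM in H1299 and 187 to 201 CPM in A549, without overlap. Summed FPKM with empty vector was 297 to 340 in H1299 and 244 to 256 in A549, also without overlap.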

How the data were processed

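RNA-seq libraries of H1299 and A549 with VGF or empty vector were grouped by their titles, 3 a group. The free-text treatment note gives the empty vector for every library and was not used. The authors deposited raw counts per feature and, in a second table, FPKM of the same features. The submitters' processing notes name GRCh38 and DESeq2. Aligner, counter, annotation, strand and handling of shared reads: not given in the sources used here. 18 stray lines without a feature were left out of the 26535.

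Counts were fitted with the quasi-likelihood test of edgeR 4.0.16 in R 4.3.3 over all 12 libraries, with TMM scaling, filterByExpr by group, 4 group means and no block, and Benjamini-Hochberg adjustment over the 18228 features tested. A gene was called at an adjusted p under 0.05. Adjusted p-values come from it except where a sentence names another tool. CPM is scaled to the library total times the TMM factor. Alternatives used DESeq2 1.42.0, limma 3.58.1, other scalings and filters, log2 FPKM and left-out libraries. Where all libraries of a group were at 0, bounds take 3 counts in the group as the floor. Intervals of ratios and floors cover counting error only. The pipeline was tested on simulated counts. Same-numbered libraries did not deviate together, and the numbers were not used as pairs. No replicate pair agreed within sampling noise. Positions and transcripts are from GENCODE release 29, and promoters from RefSeq.

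The histone genes, the other lists and the tests were chosen with earlier results of these data known. Named genes were the 6 largest called rises and falls between lines with empty vector at 1 FPKM or more, the 10 highest by FPKM, the highest of each histone class, the 3 smallest p per direction for VGF, and up to 3 called genes a list. HIST1H1D, HIST1H3F, HIST1H2BO, HIST1H4K, HIST1H2BJ, HIST3H2BB and HIST1H2AH were named after their values were seen.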

Additional observations from a re-analysis of the deposited data

How the results depend on the processing

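For VGF, no histone gene was called in either line, or for the difference between lines, under any setting: 24 settings in each line and 23 for the difference, left-out libraries included, with smallest adjusted p of 0.388 in H1299, 0.0877 in A549 and 0.17 for the difference. Leaving out 1 library at a time moved the median fitted log2 fold change over all tested genes between -0.25 and -0.02 in H1299, between -0.05 and 0.20 in A549 and between -0.50 and -0.08 for the difference. Between lines with empty vector it left 13 to 17 higher calls, 9 to 15 lower calls and medians of 0.34 to 0.69. With VGF it left 11 to 15 higher calls, 13 to 15 lower calls and medians of 0.09 to 0.41. A filter of 1 CPM in 3 libraries, which leaves 32 genes, gave medians of 0.22 with empty vector and -0.22 with VGF, against 0.56 and 0.20. For the VGF effect, this filter gave medians of -0.08 in H1299, 0.005 in A549 and -0.12 for the difference. The fitted medians over all tested genes were -0.25, 0.09 and -0.36. The log2 ratio of the summed level, H1299 over A549, was 0.10 with empty vector, 0.31 on library totals alone and 0.35 for summed FPKM. With VGF it was 0.00, 0.21 and 0.27, and -0.13 without HIST1H2BK, a check added after the data were seen, as was the summing of copies. No call changed direction. With the replicate block, 16 genes were called higher and 14 lower between lines with empty vector, 13 and 14 with VGF, and 0 for VGF in either line; same-numbered libraries correlated at -0.09 to 0.06, so the numbers do not pair them. HIST1H2BE between lines with empty vector and HIST1H4E with VGF each lost their call under 9 settings. Genes with few counts have wide intervals.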
